A study of Mus musculus with 6 samples.

Results

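The RNA of wildtype mouse oocytes at the germinal vesicle (GV) stage is described here from 3 libraries, all the wildtype libraries of a series of 6. The other 3 libraries came from oocytes without maternal Prdm10 and were not analysed here. Each wildtype library was made from a pool of about 10 GV oocytes, and the labels give the genotype as wildtype with no strain, age or hormone treatment. They call the pools biological replicates but do not say whether the pools came from separate mice, so the spread between them may in part be technical. All 27179 gene identifiers of the 3 count tables were used for the counts over all genes, and the genes named were picked by level, by list or with their values in view.

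A GV oocyte is the fully grown female germ cell, arrested early in meiosis I with its nucleus, the germinal vesicle, still intact. It has stopped most of its transcription and lives on messenger RNA made during growth, much of it kept untranslated with short poly(A) tails until meiosis resumes. These stores carry meiotic maturation, fertilisation and the first cleavage, until the genome of the embryo is switched on. A transcript level in such a cell therefore describes stored RNA more than a rate of synthesis. The cDNA kit named in the labels primes from poly(A) tails, so messages with short tails may be captured less. The levels here are shares of the captured RNA and do not measure the size of a store.

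The pools held 38831227, 26956387 and 22492228 counts in replicates 1, 2 and 3. A single count was worth between 0.0258 and 0.0445 counts per 1000000 counts of the pool (CPM), and a gene with no count could hold up to 0.0773, 0.111 and 0.133 CPM (3 counts) in the respective pools, a limit that covers counting error only. At least 1 count was found for 19307, 18187 and 17973 genes. At a mean of 1 CPM or more stood 12735 genes, of which 11837 were protein-coding and 464 were long non-coding RNAs. No count in any pool was found for 6976 genes. Protein-coding genes held 97.5% ± 0.504 (SD, n = 3) of the counts. Replicates 2 and 3 were nearly alike, and replicate 1 differed from both, most for short, GC-rich and mitochondrial transcripts, so values are given pool by pool in the order of replicates 1, 2 and 3.

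The counts were spread over many genes. The 10 most abundant genes held 5.36%, 5.37% and 5.38% of the counts of the 3 pools, and the 100 most abundant held 19.3%, 19.8% and 19.7%. It took 857, 797 and 806 genes to reach 50% of the counts. Genes with a mean of 1000 CPM or more numbered 97 and held 18.9% of the counts, while the 2321 genes between 100 and 1000 CPM held 55.1%. These shares differed little between the pools although the ranks of single genes did: 78 genes were among the 100 most abundant of all 3 pools, against 97 shared by replicates 2 and 3.

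To compare genes with one another, counts were divided by the length of the longest annotated transcript and scaled within each pool as for CPM, which gives the per-length level. By this measure, which rests on the length chosen, the leading transcripts were those of Elobl, an elongin B-like gene, Zbed3, whose product belongs to the subcortical maternal complex, H1f8, the oocyte linker histone, and Gdf9, a secreted ligand of the TGF-beta family. The per-length level of Elobl (chr11:88964658-88966931) was 16830, 10775 and 10703 in replicates 1 to 3, or 12769 ± 3517 (SD, n = 3). That of Zbed3 (chr13:95323605-95337842) was 13837, 11791 and 12041. H1f8 (chr6:115944931-115950242) stood at 14094, 10384 and 9841 on the same scale. The order of these leading genes is not fixed, since each of the 3 was highest in replicate 1 and their ranges overlapped. Gdf9 (chr11:53430774-53437904) had a per-length level of 8285, 10124 and 10522, and its range lay below that of Elobl and Zbed3 and overlapped that of H1f8. With the median in place of the longest transcript length the order among the 25 highest genes turned: the mean of Gdf9 led at 18098, Padi6 had 9499, and Elobl, Zbed3 and H1f8 fell to 6730, 5817 and 5541. Orders between genes on the per-length scale therefore hold for the longest transcript. Gdf9 overlaps the neighbouring gene Uqcrq in the annotation, so reads in the shared stretch may be missing from both.

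**Figure D1:**
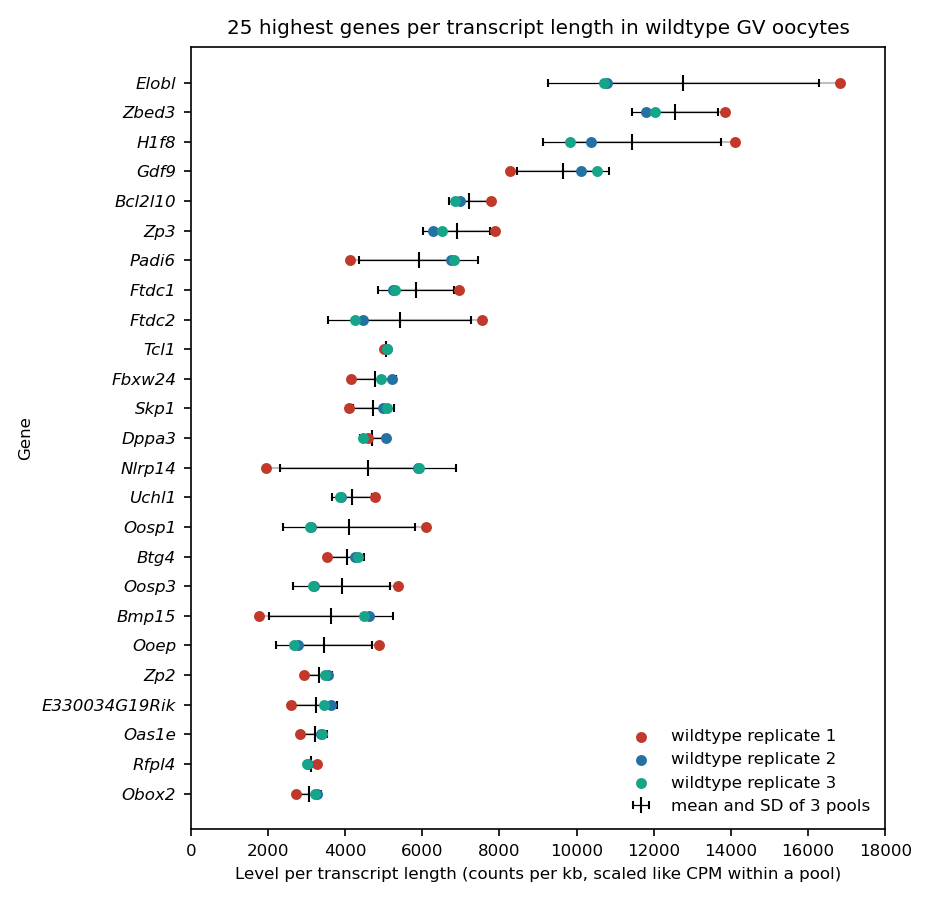
Per-length level (counts per kilobase of transcript, scaled within each pool as for CPM) of the 25 highest genes, with 1 point per pool and the mean and SD of the 3 pools. Replicates 2 and 3 lie close together and replicate 1 apart in most lines, but not for Dppa3, where replicate 1 lies between them. The level in replicate 1 ranges from 1775 for Bmp15, against 4629 and 4479, to 16830 for Elobl, against 10775 and 10703.

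Promoters of the highest genes are shown as the sequence before their annotated starts. The lines give the 120 bases before the annotated RefSeq start of the 8 highest protein-coding genes with a single annotated start in the RefSeq table of GRCm38.p6, 5′ to 3′ on the strand of the gene, and capitals mark TATAA or TTTAA between 50 and 11 bases before the start.
Elobl: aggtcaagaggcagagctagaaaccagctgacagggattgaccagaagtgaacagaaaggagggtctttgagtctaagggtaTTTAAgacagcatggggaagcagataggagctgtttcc
H1f8: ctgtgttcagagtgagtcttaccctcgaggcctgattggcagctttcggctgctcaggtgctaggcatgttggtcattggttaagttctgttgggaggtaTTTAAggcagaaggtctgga
Zp3: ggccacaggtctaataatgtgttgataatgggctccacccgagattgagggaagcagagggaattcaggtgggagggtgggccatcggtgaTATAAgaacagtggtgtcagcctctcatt
Padi6: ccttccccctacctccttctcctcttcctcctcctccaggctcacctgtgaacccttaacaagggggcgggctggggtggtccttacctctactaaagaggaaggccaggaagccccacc
Ftdc1: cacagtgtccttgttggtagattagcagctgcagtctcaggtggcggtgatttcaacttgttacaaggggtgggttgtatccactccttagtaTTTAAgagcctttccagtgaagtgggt
Ftdc2: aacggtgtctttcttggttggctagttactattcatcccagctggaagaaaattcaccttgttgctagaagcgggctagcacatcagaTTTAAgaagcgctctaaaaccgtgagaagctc
Tcl1: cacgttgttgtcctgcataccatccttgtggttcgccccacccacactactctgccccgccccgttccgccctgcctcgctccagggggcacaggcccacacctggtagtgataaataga
Fbxw24: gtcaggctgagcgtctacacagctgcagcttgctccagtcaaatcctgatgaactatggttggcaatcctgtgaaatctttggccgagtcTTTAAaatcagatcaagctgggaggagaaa
They lie at chr11:88966932-88967051 (minus strand) for Elobl, chr6:115944811-115944930 (plus) for H1f8, chr5:135979985-135980104 (plus) for Zp3, chr4:140742644-140742763 (minus) for Padi6, chr16:58616979-58617098 (minus) for Ftdc1, chr16:58638404-58638523 (minus) for Ftdc2, chr12:105222738-105222857 (minus) for Tcl1 and chr9:109626060-109626179 (minus) for Fbxw24.

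TATAA or TTTAA was searched on the strand of the gene. Among the 100 genes of highest per-length level, 69 had a single-start promoter, and 14 of the 69 (20.3%) held a match from 40 to 21 bases before the start, as did 7.29% of all 14075 single-start promoters of coding genes. The share in that window was 3.82% among genes of 1 CPM or more and 13.1% among 2916 genes with no count. A wider window, from 50 to 11 bases before the start, was chosen after the sequence of H1f8 had been seen, and is the one marked in the lines above. It held a match in 6 of the 8 promoters shown, in 17 of the 69 (24.6%) and in 10.1% of all. In this wider window the share was 5.31% among genes of 1 CPM or more and 18.999% (554 of 2916) among genes with no count. Matches in the wider window were also found for Bmp15, Zar1, Obox1, Obox5, Oog3 and Fbxw15. The motif CANNTG, the core of the E-box to which Figla binds, searched on both strands of the 250 bases before the start, was in 73.9% of the 69 promoters, in 62.8% of all and in 71.7% of those of genes with no count. The other motifs searched in the same way were CACGTG, in 4.35% of the 69 and 6.67% of all, and CCAAT, in 42.0% of the 69 and 37.0% of all. Median GC content over those 250 bases was 51.6% in the top 69, 59.6% for genes of 1 CPM or more and 43.2% for genes with no count. These are matches of letters at annotated starts, which oocytes may not use.

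Oocyte gene families led the transcriptome as groups. The zona, subcortical, maternal-effect and multigene family lists together hold 83 genes, which held 11.1%, 11.6% and 11.6% of the counts and 16.1%, 16.8% and 16.7% of the per-length total. For scale, 56.4% of all protein-coding genes were at 1 CPM or more. Of all 27179 identifiers, 8398 had a mean of 10 CPM or more and 2418 of 100 CPM or more. The lists were put together with earlier results of these data known, so their height describes them and does not test them.

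**Figure D2:**
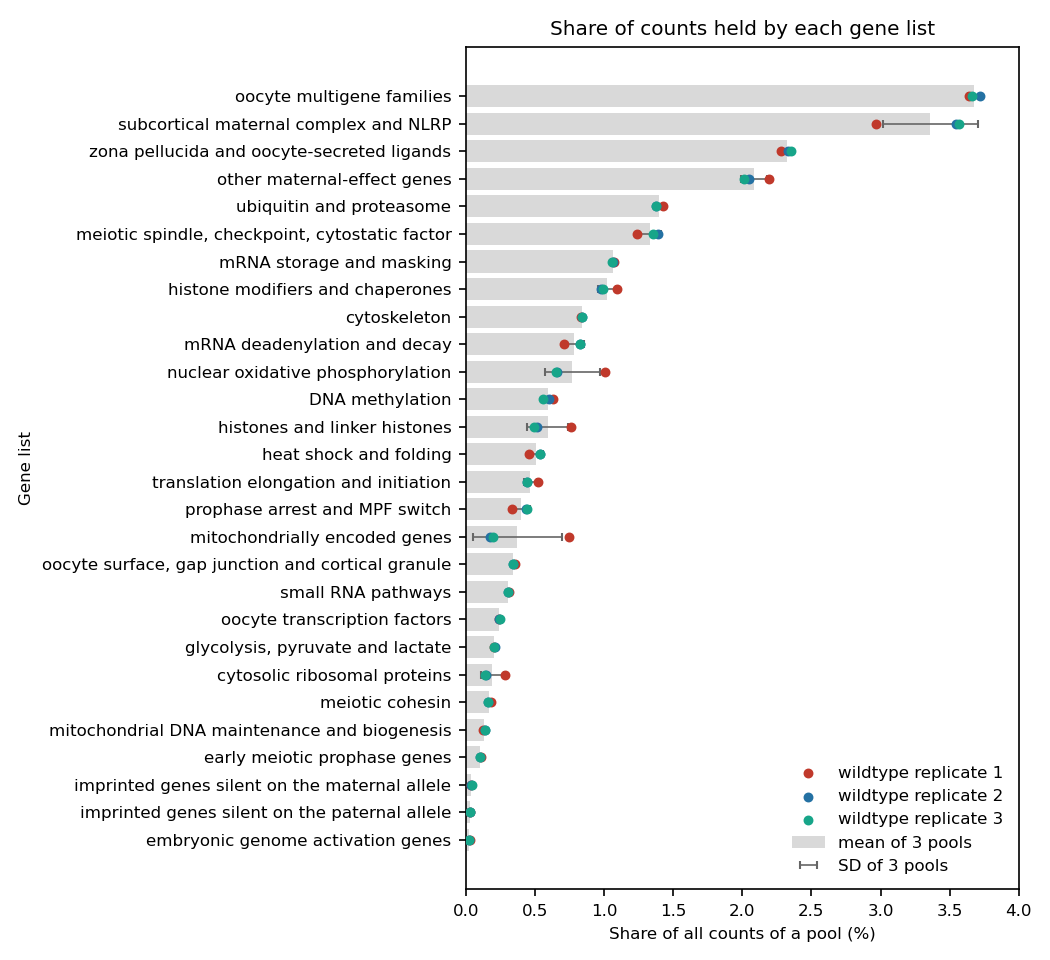
Share of all counts of a pool (%) held by each of 28 gene lists, with 1 point per pool, the mean as a bar and the SD of the 3 pools. The oocyte multigene families hold 3.68% on average, and the mitochondrially encoded genes show the widest relative gap between pools, 0.744% in replicate 1 against 0.176% and 0.193%.

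The zona pellucida is the glycoprotein coat of the oocyte, and the oocyte also secretes ligands that act on the surrounding granulosa cells. All 10 genes of this list were above 100 CPM, and together they held 2.28%, 2.33% and 2.35% of the counts. The per-length level of Zp3, the coat protein known for sperm binding, was 7890, 6281 and 6508. Zp2, whose cleavage after fertilisation hardens the coat, stood at 2943, 3557 and 3488 per length, and Zp1, which cross-links the filaments, at 2013, 2229 and 2307. The coat transcripts thus kept the same order, Zp3 then Zp2 then Zp1, in each pool, with no overlap between their ranges. Zp3 was highest in replicate 1 while Zp1 and Zp2 were lowest there.

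Among the ligands, Bmp15, the partner of Gdf9, had a per-length level of 1775, 4629 and 4479, so that replicate 1 was far below the others. The oocyte-secreted proteins Oosp1 (6085, 3121 and 3096 per length), Oosp2 (3166, 1892 and 1895) and Oosp3 (5366, 3202 and 3171) moved the other way. These 3 genes lie side by side on chromosome 19, from 11647284 to 11711858. Fgf8, which promotes glycolysis in cumulus cells, was lower at 423 ± 59.4 per length (SD, n = 3), and Bmp6 was lowest of the list at 73.9.

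Genes of the oocyte surface, gap junctions and cortical granules had 14 of 15 members at 1 CPM or more. Gja4, connexin 37 of the junctions between oocyte and granulosa, was highest, at 1811, 1451 and 1415 per length. Astl, the cortical granule protease ovastacin that cleaves Zp2, stood at 716, 1001 and 1080, and Izumo1r, the sperm receptor Juno, at 875, 506 and 465. The tetraspanin Cd9, needed for gamete fusion, was steadier at 389, 430 and 471. The receptor Kit differed most, with 82.3 in replicate 1 against 231 and 225.

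The subcortical maternal complex lies beneath the oocyte membrane and is needed for cleavage of the early embryo, and NLRP genes form a large family expressed in oocytes. All 17 genes of this list were at 10 CPM or more and 16 at 100 CPM or more. Their share of counts was 2.97%, 3.55% and 3.57%. After Zbed3, the per-length level was highest for Padi6, which is required for the cytoplasmic lattices, at 4136, 6742 and 6831. With the median transcript length Padi6 was above Zbed3, at 9499 against 5817. Nlrp14 (chr7:107113455-107198103) stood at 1963, 5892 and 5916. Nlrp5, also called Mater, had 463, 1125 and 1107. Those 3 were lower in replicate 1, whereas Ooep was higher there, with 4879 against 2782 and 2681, and Tle6 (2703, 3042 and 3086) and Khdc3 (1689, 1612 and 1695) were near level. By CPM, replicate 1 was the lowest pool for 14 of the 17 genes and the highest for 3. Over all 20203 genes with a count, 29.7% were lowest and 52.8% highest there. The median difference of the 17 genes from the mean of replicates 2 and 3 was -0.68 on the log2(CPM + 0.5) scale. The 3 that were highest in replicate 1 by CPM were Zbed3, Ooep and Khdc3, none of them an NLRP gene. Per length, Khdc3 was highest in replicate 3.

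Maternal-effect genes are those whose loss in the mother harms the embryo. All 18 genes listed as other maternal-effect genes were above 10 CPM, though such harm is not established here for each of them. Bcl2l10, an anti-apoptotic BCL2 family member, had a per-length level of 7795, 6984 and 6853. Tcl1, a co-activator of AKT, was among the steadiest of the abundant genes at 5003, 5089 and 5094. Dppa3, also called Stella, which shields maternal DNA methylation in the zygote, stood at 4596, 5049 and 4464, and the deubiquitinase Uchl1 at 4776, 3882 and 3864. Npm2, the histone chaperone nucleoplasmin, had 3211, 2734 and 2719. No gene of this list differed over 2-fold between the highest and lowest pool, as 10.6% of all genes of 10 CPM or more did.

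The multigene families of the mouse oocyte held more counts than any other list, 3.64%, 3.72% and 3.66%, and 35 of 38 members were at 1 CPM or more. Each of the 35 was in fact at 10 CPM or more, and 3 members, Obox3, Obox6 and Rfpl4b, were under 1 CPM. Within the list the ferritin-like gene Ftdc2 had the highest mean, at 7553, 4454 and 4249 per length. With the median transcript length it had 2458, below another member that has only a clone name, at 2943. Its neighbour Ftdc1, which is not in the list, had 6965, 5237 and 5293, a higher mean (5832 against 5419). The F-box gene Fbxw24 stood at 4151, 5214 and 4934, Rfpl4 at 3267, 3037 and 3014, and the homeobox gene Obox2 at 2715, 3275 and 3228. Oas1e, one of the oligoadenylate synthetase paralogs of the oocyte, had 2835, 3384 and 3413. Members of these families resemble each other closely, and the handling of reads that fit several members is not given in the sources used here, so the split between members is uncertain.

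Other transcripts among the 25 highest by CPM included Plat, tissue-type plasminogen activator, known to be stored and translated at maturation, with 2608, 4254 and 4139 CPM. Rdx, the membrane-actin linker radixin, was nearly level at 3414, 3630 and 3652 CPM. Skp1, a core subunit of SCF ubiquitin ligases, had 3000, 3333 and 3392 CPM, and the chromatin reader Spin1 had 2996, 3223 and 3133 CPM. Bpgm, Mat2b and Tle6 were also among the 25. The lists of 25 highest genes by CPM and per length shared 17 genes.

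The transcription factors of oocyte growth were present at moderate levels. Nobox stood at 1059, 1224 and 1237 per length, Lhx8 at 407, 524 and 527, and Figla, which switches on the zona genes, at 139, 140 and 136. Of 22 factors 20 were at 1 CPM or more. Sohlh1, which acts early in follicle formation, averaged 0.269 CPM and the pluripotency gene Nanog 0.145 CPM, while Pou5f1 had a per-length level of 85.9 ± 13.9 (SD, n = 3). The list as a whole held 0.241%, 0.241% and 0.244% of the counts, among the steadiest of the lists.

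Proteins that store and mask maternal messenger RNA keep it from being translated or degraded. This list held 1.07%, 1.06% and 1.06% of the counts, with 35 of 37 members at 1 CPM or more. Zar1, which organises messenger RNA around mitochondria, was highest at 1799, 1826 and 1743 per length, and its paralog Zar1l had 1862, 1396 and 1316. Pabpn1l, an oocyte poly(A)-binding protein, stood at 1128, 1175 and 1236. Cpeb1, which binds the cytoplasmic polyadenylation element, was lower in replicate 1, with 617 against 1090 and 1113, whereas its translational partner Dazl was level at 895, 836 and 865. Ybx3 had 672 ± 112 per length, and the better known Ybx2 had 219. The somatic forms Msi1 and Igf2bp1 were under 1 CPM.

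On the side of messenger RNA decay, 41 of 43 genes were at 1 CPM or more, and Btg4, the adaptor that brings the CCR4-NOT deadenylase to maternal transcripts, stood far above the rest at 3535, 4252 and 4335 per length. The catalytic subunit Cnot7 had 256, 545 and 545, and the decapping activator Dcp1a had 267, 500 and 463. Both were lowest in replicate 1 beyond the gap between the other two pools. Cnot11, a subunit of the same complex as Cnot7, showed 303, 341 and 346.

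The prophase arrest is kept by high cyclic AMP and by holding the cyclin B-CDK1 kinase, MPF, inactive. All 26 genes of this switch were at 1 CPM or more. Ccnb1, cyclin B1, had a per-length level of 519, 1045 and 1106, and Wee2, the oocyte kinase that inhibits CDK1, had 513, 779 and 782. Fzr1, the APC activator that keeps cyclin B1 low before maturation, was level at 201, 193 and 191, and so was Arpp19, a PP2A inhibitor, at 171, 172 and 181. Cdk1 itself averaged 135 and the receptor Gpr3, which raises cyclic AMP, 83.5. Ccnb1, Wee2, Ccnb2 and Mastl were lowest in replicate 1.

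Among genes of the meiotic spindle, checkpoint and cytostatic factor, 47 of 48 were at 1 CPM or more, and the exception was the testis cyclin Ccna1 at 0.0333 CPM. Pttg1, securin, led at 2832, 1942 and 1832 per length. Mos, the kinase of the cytostatic factor, had 1927, 1696 and 1745. Bub1b, a checkpoint kinase, was lower in replicate 1 at 645 against 1369 and 1378, as was the spindle protein Tacc3 at 862 against 1565 and 1399. Birc5, survivin, was level at 587, 615 and 586. The oocyte form Aurkc averaged 192 per length, Aurka 597 and Aurkb 51.8.

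Genes of earlier meiosis were lower. The cohesin list held 0.166% ± 0.0116 of the counts (SD, n = 3), led by the acetyltransferase Esco2 at 281, 250 and 273 per length. The meiotic cohesin subunits Smc1b and Stag3 averaged 10.2 and 3.32, and Rec8 was listed at 0 in all 3 pools, although it is a cohesin subunit of oocytes. No other gene of the RefSeq table overlaps Rec8, and why it is listed at 0 was not tested. Among early prophase genes 17 of 22 were at 1 CPM or more, and Syce2, of the synaptonemal complex, stood apart at 950, 891 and 905 per length. Stra8 and Spo11, which act at meiotic entry and in the making of DNA breaks, had no count.

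Among DNA methylation genes 9 of 15, and among histone modifiers and chaperones 31 of 60, were at 100 CPM or more. Over all 27179 identifiers, 2418 were at that level. The DNA methylation list held 0.628%, 0.602% and 0.560% of the counts. Dnmt1, the maintenance enzyme stored for the embryo, had a per-length level of 657, 784 and 682, and Zfp57, which guards imprints, had 893, 1091 and 1153. Dnmt3l and Dnmt3a, which set methylation in the growing oocyte, averaged 301 and 47.1. Tet3, the oxidase acting on the paternal genome, was higher in replicate 1, with 187 against 77.6 and 76.2, while Tet1 and Tet2 averaged 1.51 and 1.40.

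Of 60 histone modifiers and chaperones 58 were at 1 CPM or more, led after Npm2 by Pcgf1 (1646, 1303 and 1262 per length), Asf1a (494, 544 and 555) and the Polycomb genes Eed (412, 536 and 532) and Ezh2 (444, 406 and 411). Among histones, H1f8 was followed at a distance by H2bc4 at 323, 291 and 309 per length and H2ax at 298, 229 and 233. The somatic linker histones H1f2, H1f3 and H1f4 averaged 5.04, 0.549 and 1.32. Replication-dependent histone messages lack poly(A) tails, and the cDNA kit named in the labels primes from such tails, so low values of those genes describe what was captured.

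In the small RNA pathways 29 of 31 genes were at 1 CPM or more. Gtsf1 led at 2224, 1335 and 1317 per length, followed by Tdrd5 at 113, 326 and 315 and Tdrd12 at 249, 234 and 226. Dicer1, needed for the small interfering RNAs of the mouse oocyte, averaged 106. Mael, of the piRNA pathway, was level at 160, 178 and 176, and Piwil4 averaged 0.0777 CPM.

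Mitochondrially encoded transcripts differed more between pools than any other list. They held 0.744%, 0.176% and 0.193% of the counts, a total to which 6 of the 15 genes, at or near 0, add almost nothing. The 95% Wilson intervals were 0.742 to 0.747%, 0.175 to 0.178% and 0.191 to 0.195%, and they cover counting error only, since amplified reads of about 10 oocytes are not independent molecules. The ribosomal RNA mt-Rnr2 had 2847, 614 and 628 CPM, and mt-Cytb, of complex III, had 1158, 438 and 443 CPM. The gap was wider for the complex I genes mt-Nd4, at 665, 89.4 and 102 CPM, and mt-Nd2, at 668, 115 and 149 CPM. Each of the 9 genes above 1 CPM was more than 2-fold higher in replicate 1 than in the mean of the other pools.

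The mitochondrial genome also showed a stretch with no counts. The neighbours mt-Co2, mt-Atp8, mt-Atp6, mt-Co3 and mt-Nd4l, from MT:7013 to MT:10173, were listed at 0 in all 3 pools, and mt-Nd3 within it had 3, 0 and 0 counts. On either side, mt-Co1 had 10402, 2338 and 2781 counts and mt-Nd4 had 25822, 2410 and 2293. These genes are transcribed together with their neighbours, so the zeros are read here as the listing and not as absence of the RNA, and their cause was not tested.

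Nuclear genes of oxidative phosphorylation were broadly present, with 73 of 74 at 1 CPM or more and a summed level of 10029, 6585 and 6506 CPM. Cox4i1 led at 1316, 780 and 761 per length, before Ndufa2 at 1358, 668 and 642 and Cox6a1 at 1285, 600 and 548. The larger ATP synthase subunit Atp5b did not share this pattern, with 546, 616 and 625. Replicate 1 was the highest pool for 63 of the 74 genes, beside 52.8% of all genes with a count. Genes of mitochondrial DNA maintenance held 0.131% ± 0.00907, and the polymerase genes Polg and Polrmt averaged 2.77 and 30.2 per length.

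Cytosolic ribosomal protein transcripts, among the most abundant in most growing cells, were low. Their 81 genes held 0.285%, 0.145% and 0.139% of the counts, the median per-length level was 27.9, and 44 had a mean of 10 CPM or more. The highest were the ribosomal protein-like gene Rps27l, at 762, 461 and 449 per length, and Rplp1, at 457 ± 126 (SD, n = 3). Replicate 1 was the highest pool for 80 of the 81 genes and the lowest for none, beside 52.8% and 29.7% of all genes with a count. Many of these genes have processed pseudogenes of near-identical sequence, so reads that fit several places may be missing from them, and their levels are uncertain. The translation factors, at 0.521%, 0.438% and 0.439% of the counts, were led by Eif5a at 768, 624 and 618 per length.

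Oocytes are known to use pyruvate and to take up little glucose. Ldhb, the lactate dehydrogenase form that favours pyruvate, stood at 1839, 2200 and 2013 per length. Ldha averaged 6.79 and Gapdh 1.82, although Gapdh also has many pseudogenes and carries the same uncertainty. Pkm averaged 335 ± 53.3 (SD, n = 3), and Pdha1, of pyruvate dehydrogenase, had 32.2, 69.9 and 63.7. The glucose transporters Slc2a1 and Slc2a3 averaged 27.7 per length and 0.317 CPM.

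In the cytoskeleton list, after Rdx, the beta-tubulin genes Tubb4b (1433, 1677 and 1704 per length), Tubb2a (934, 1155 and 1153) and Tubb6 (741, 1000 and 1031) were high and the alpha-tubulin Tuba4a had 328, 436 and 422. The alpha-tubulins Tuba1a and Tuba1b averaged 0.0654 and 0.106 CPM and Tmsb4x was listed at 0. These genes have close copies, so reads that fit several places may be missing from them, and the values do not show that their RNA was absent. Actb averaged 150 per length and Actg1 10.8. The formin Fmn2 and the nucleator Spire1, which build the actin mesh that moves the spindle, averaged 86.4 and 178.

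Chaperones had all 25 genes at 1 CPM or more, with Cct5 highest at 714, 1022 and 996 per length. Hspa5, the chaperone of the endoplasmic reticulum, was lower in replicate 1, with 119 against 317 and 337. The heat shock genes Hspa1a and Hspa1b averaged 1.53 and 17.7. In the ubiquitin and proteasome list 38 of 39 genes were at 1 CPM or more, and after Skp1 and Uchl1 the proteasome subunit Psmb2 had 1168, 1081 and 1045 per length. Ubb, a polyubiquitin gene, averaged 179 per length.

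Imprinted genes are expressed from the allele of 1 parent, and they were listed here by which allele is known to be silent. Of the 21 genes silent on the maternal allele 11 were at 1 CPM or more, near the 56.4% of all protein-coding genes. The list held only 0.0329%, 0.0363% and 0.0410% of the counts. A single gene, Mest, with 254, 307 and 344 CPM, made up most of that. Mest overlaps Copg2 in the annotation. Igf2 had a per-length level of 0.610, and Peg3 had 1.38. Of the 15 genes silent on the paternal allele 12 were at 1 CPM or more, led by Ube3a at 30.9, 33.3 and 35.5 per length. H19 averaged 0.0209 CPM.

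Of 17 genes of embryonic genome activation 5 were at 1 CPM or more, 13 had a count and 4 had none. Tcstv1 had 135, 157 and 149 per length, Sp110 had 145, 86.7 and 93.5, and Tcstv3 had 71.0, 73.6 and 78.1. Zscan4d averaged 3.76 per length, and Zscan4f, Tdpoz3, Tdpoz4 and Usp17ld had no count. The Zscan4, Tdpoz and Usp17l genes belong to families of near-identical copies, so reads shared among copies may be missing from them.

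By chromosome, 42.1% of the coding genes on the X were at 1 CPM or more, the lowest share of any chromosome except the Y, on which no gene reached that level. Among expressed coding genes, the median per-length level of 387 X-linked genes was 0.692, 0.678 and 0.685 of that of 11400 autosomal genes. A GV oocyte carries X chromosomes that are both active.

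Markers of other cells were low beside those of the oocyte. All 12 oocyte markers were above 1 CPM and 11 above 100 CPM, the lowest being Figla at 41.2 CPM. Of 92 marker genes of other cell types, counted once each, 31 were at 1 CPM or more, 10 at 10 CPM or more and 35 under 0.1 CPM, and together they held 0.0679%, 0.0683% and 0.0683% of the counts. In bulk RNA, a few contaminating cells and a low level in every oocyte cannot be told apart.

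**Figure D3:**
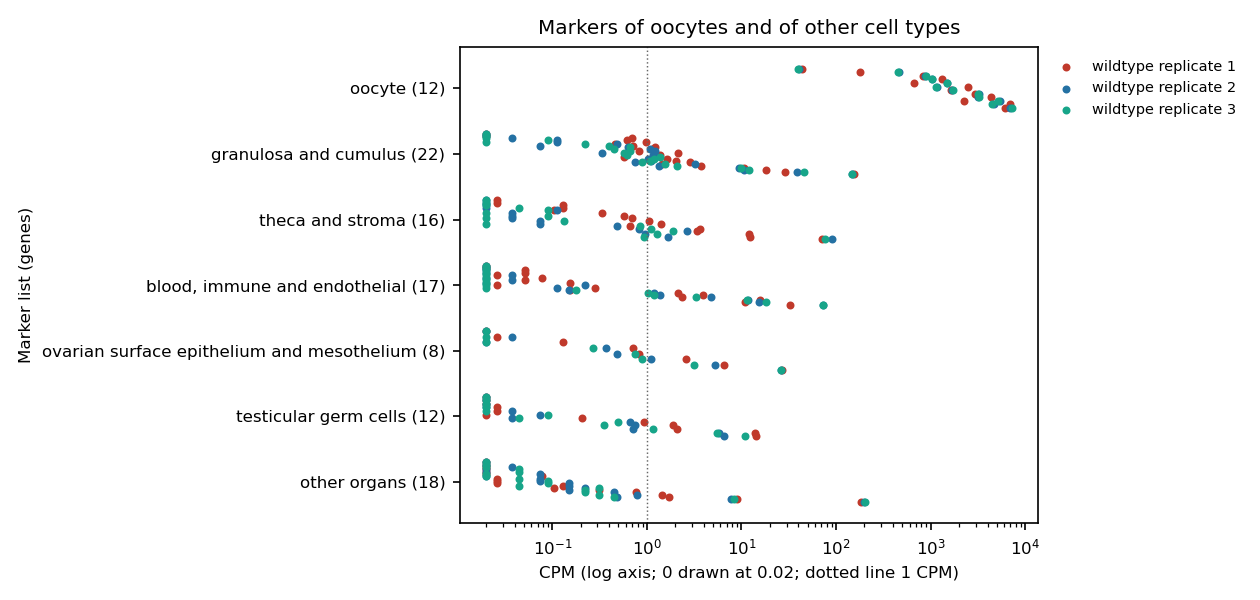
CPM (log axis) of 12 oocyte markers and of 6 lists of markers of other cell types, with 1 point per gene and pool and the number of genes in brackets. The oocyte markers lie between 39.3 and 7185 CPM, and of the other markers Vil1, at 184 to 204 CPM, and Esr2, at 147 to 154 CPM, are the highest.

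For granulosa and cumulus cells, the neighbours of the oocyte, 12 of 22 markers were at 1 CPM or more, near the 56.4% of all protein-coding genes. The receptor Fshr had 1.39, 1.15 and 0.622 CPM, the granulosa factor Foxl2 had 0.979, 0.111 and 0 CPM, and the cumulus genes Ptx3 and Tnfaip6 had no count. Against this, Esr2, oestrogen receptor beta, stood at 154, 147 and 148 CPM, and Cyp19a1, aromatase, at 29.1, 39.1 and 46.0 CPM. Esr2 was nearly the same in the 3 pools, and Cyp19a1 was lowest in replicate 1, where Foxl2 and Fshr were highest. Of the markers of this list with a count, all but Cyp19a1, Amhr2, Ptgs2, Npr2 and Gja1 were highest in replicate 1. Over all genes with a count, 52.8% were highest there.

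In the theca and stroma list, the steroidogenic genes Cyp11a1 and Hsd3b1 had 12.3, 1.67 and 0.934 CPM and 12.1, 0.965 and 1.29 CPM, and Star had 3.66, 0.816 and 1.11 CPM. They were highest in replicate 1, as were the smooth muscle genes Acta2 (1.42, 0.0742 and 0 CPM) and Tagln (1.06, 0.0742 and 0.133 CPM). Of the 16 genes of this list 5 were at 1 CPM or more. All but Myh11, Pdgfra and Pdgfrb were highest in replicate 1, beside 52.8% of all genes with a count. The summed list differed less, at 108, 97.4 and 81.9 CPM, because Myh11 alone had 71.1, 90.4 and 75.5 CPM. The collagen genes Col1a1 and Col1a2 averaged under 0.1 CPM. What part such cells play in the difference of replicate 1 was not tested.

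Among blood, immune and endothelial markers 6 of 17 were at 1 CPM or more. Pecam1 had 32.6, 72.8 and 73.6 CPM while Cdh5, another endothelial junction gene, had no count, and C1qb had 15.8, 11.8 and 11.3 CPM while its partner C1qa had 0.155, 0 and 0. The leukocyte gene Ptprc averaged 0.0828 CPM. The summed list had 68.6, 108 and 109 CPM. Of the epithelial, testicular and other organ markers, 3 of 8, 3 of 12 and 2 of 18 were at 1 CPM or more, and Vil1, villin, with 184, 199 and 204 CPM, was the highest.

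The spread between the pools was uneven. Among the 8398 genes with a mean of 10 CPM or more, the SD of log2(CPM + 0.5) over the 3 pools had a median of 0.24 and quartiles of 0.13 and 0.40. The highest and lowest pool were within 1.25-fold for 2871 genes (34.2%) and over 2-fold apart for 894 (10.6%). In all of the 894, replicate 1 was at one end, as the highest pool for 531 and the lowest for 363. Between replicates 2 and 3 alone, 1 gene differed over 2-fold, the nuclear long non-coding RNA Malat1, at 5.08 and 11.4 CPM.

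Other measures gave the same division. Across those 8398 genes, which are not independent replicates, Spearman's rho was 0.996 between replicates 2 and 3 and 0.923 and 0.921 between replicate 1 and each of them. The biological coefficient of variation estimated by edgeR was 24.1% over all 3 pools, 5.19% for replicates 2 and 3, and 28.7% and 28.9% for the pairs with replicate 1. Replicates 2 and 3 still differed by more than the sampling of reads, with a chi-square of 4.37 per gene over 15097 genes where 1 would be sampling alone. Amplified reads are not independent molecules, so this value cannot show whether the pools were separate. The labels list them as 2 biological replicates, and they were counted as 2 libraries.

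**Figure D4:**
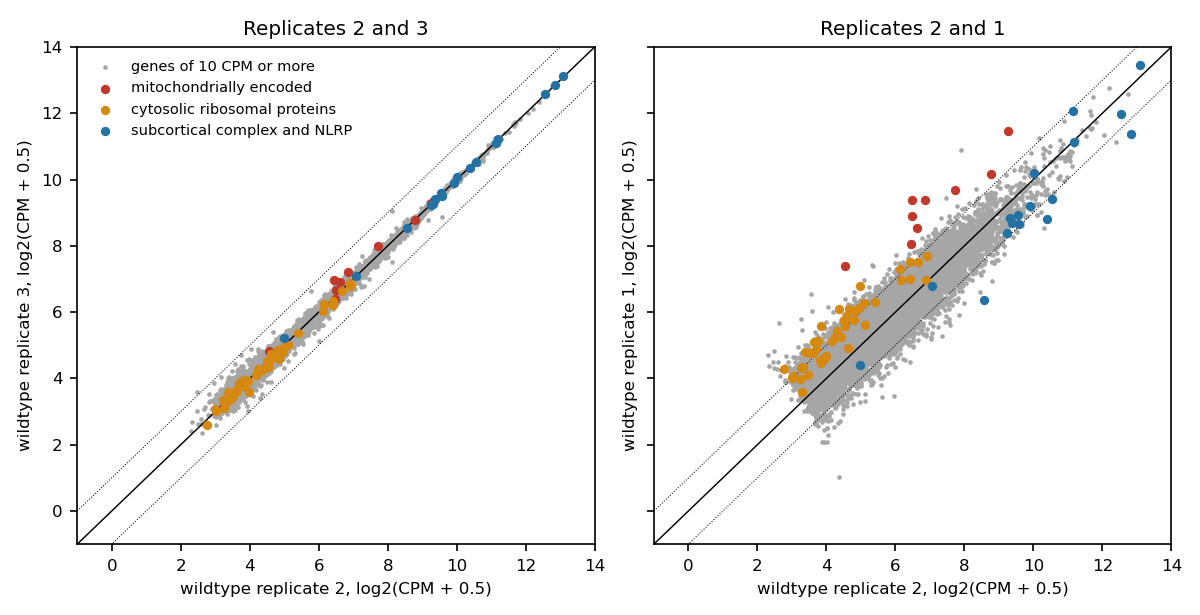
Each point is a gene with a mean of 10 CPM or more, plotted as log2(CPM + 0.5) in replicate 2 (horizontal axes) against replicate 3 (left) and replicate 1 (right), with the line of equality and dotted lines at 2-fold. Replicates 2 and 3 follow the line with a rho of 0.996, and against replicate 1 the mitochondrially encoded and ribosomal protein genes lie above the line and most of the subcortical and NLRP genes below it.

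Replicate 1 was more than 2-fold higher than the mean of replicates 2 and 3 for 416 genes and more than 2-fold lower for 318, so 56.7% of such genes were higher there. This split depends on the scaling: with TMM or DESeq2 scaling the median difference of all 8398 genes moved from 0.03 to -0.11 and -0.13 on the log2 scale, and 32.1% and 29.4% of such genes were higher. The highest in replicate 1 were, besides the mitochondrial genes, Ccnd2, a cyclin known from granulosa cells, with 92.4, 11.4 and 21.3 CPM, Trim41 with 65.4, 11.5 and 11.3 CPM, Synpo with 25.8, 4.41 and 4.85 CPM and the histone methyltransferase gene Setd1a with 70.5, 16.0 and 16.0 CPM. The lowest were the protease gene Ddi2, with 10.6, 61.4 and 63.7 CPM, Nlrp4g, with 82.1, 381 and 373 CPM, and the ubiquitin ligase gene Rfwd3, with 10.3, 48.1 and 48.4 CPM. The coatomer genes Copa (22.2, 84.8 and 82.3 CPM) and Arcn1 (123, 445 and 427 CPM) and the replication gene Mcm2 (59.7, 229.5 and 215 CPM) were also among the 10 lowest.

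The difference of replicate 1 moved with transcript length and base composition. Genes with the shortest transcripts, 287 to 1456 bases, had a median difference of 0.60 on the log2 scale, those of 3985 to 4565 bases had -0.17, and the longest had 0.13. By GC content the median rose from -0.14 in the lowest of 10 equal groups to 0.39 in the highest. Across 8127 genes Spearman's rho of the difference was -0.19 with length and 0.25 with GC content, given as a description. Between replicates 2 and 3 the medians lay between -0.02 and 0.03 in every group, and along GC content they rose from -0.02 in the lowest group to 0.03 in the highest, the same direction over a smaller range.

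**Figure D5:**
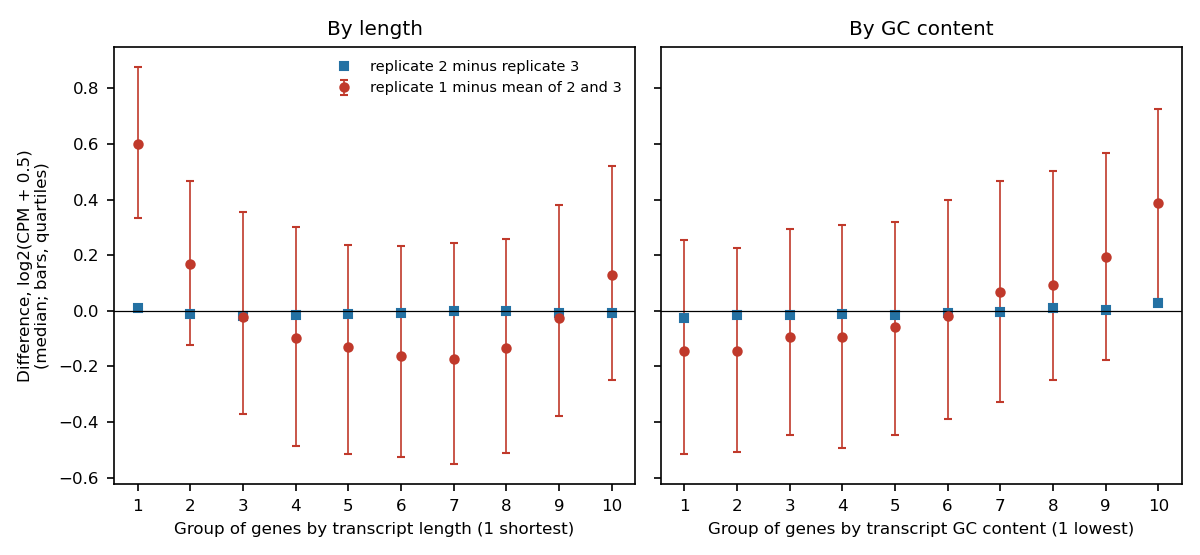
Median difference in log2(CPM + 0.5) between replicate 1 and the mean of replicates 2 and 3 (circles, bars for the quartiles) and between replicates 2 and 3 (squares), in 10 equal groups of genes ordered by transcript length (left) and GC content (right). Replicate 1 is highest for the shortest transcripts, at 0.60, and for the most GC-rich, at 0.39, while the squares lie between -0.02 and 0.03.

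Ribosomal protein and oxidative phosphorylation genes are short, and taking each gene's difference from the median of genes of like length and GC content reduced their median difference from 1.07 to 0.54 and from 0.75 to 0.30. These medians cover the 44 and 69 members at 10 CPM or more, a filter that a high value in replicate 1 helps to pass. For the subcortical and NLRP genes the median went from -0.68 to -0.36, and for the mitochondrial genes from 2.20 to 1.60. After this adjustment replicate 1 still exceeded the others over 2-fold for 286 of 8127 genes and fell short of them over 2-fold for 168, against 385 and 305 of the same genes before it. The rest of the difference, and whether it arose in the oocytes or in making the library, was not tested.

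The genes with the narrowest ratio between pools were chosen by that ratio, which is taken on library totals and changes with the scaling. The steadiest of the 2418 genes at 100 CPM or more was Hsf1, the heat shock factor required in mouse oocytes, with 133 CPM in each pool, while its per-length level was 102, 111 and 111. Obox5 had 1497, 1504 and 1510 CPM, the histone chaperone gene Asf1b 260, 261 and 262 CPM, and the ATP synthase subunit gene Atp5c1 112, 111 and 111 CPM. Rrp1b, Etaa1, Arl4a, Elovl7, Cfap97 and Tnfaip8 completed the 10 steadiest, each within 1.01-fold in CPM. After adjustment for length and GC content the log2 difference of replicate 1 was 0.31 for Arl4a and Elovl7, 0.28 for Tnfaip8 and 0.27 for Etaa1. The median ratio of highest to lowest pool among the 2418 genes was 1.35, and the widest named one was that of mt-Nd4 at 7.40.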

How the data were processed

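Wildtype GV oocytes were measured in 3 pools. Per the labels, RNA of about 10 oocytes was turned into cDNA with a SMARTer ultra low input kit and sequenced single-end as NexteraXT libraries. STAR 2.7.11a, featureCounts 2.0.3 and the build GRCm38.p6 are named in the submitters' processing notes. For the annotation, the strand setting, overlapping genes and reads with several places, the counting rule was not given in the sources used here. Raw counts per Entrez gene identifier are what the authors deposited, with 22492228 to 38831227 counts per pool.

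From the counts, CPM (count over the library total), per-length levels (longest GENCODE M21 transcript, known for 21572 genes with 97.0 to 97.7% of counts) and log2(CPM + 0.5) were computed in Python 3.11.15. RefSeq named 25275 identifiers and GENCODE 18, while 1886, with 0.376 to 0.616% of counts, stayed unnamed. Scaling factors and dispersions came from edgeR 4.0.16 and DESeq2 1.42.0 in R 4.3.3. The spread calculation was tested on simulated data. A single group allows no test between groups and gives no p-value.

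The members, the 28 gene lists and the 6 marker lists were chosen with earlier results of these data known. Named genes are the 25 highest by CPM and per length, the highest of each list, the whole zona list, the 10 highest and 10 lowest in replicate 1 at 10 CPM or more, and the 10 steadiest and 10 least steady at 100 CPM or more. Clone names and unnamed identifiers were left out, some single genes are not reported here, and further members of a list are named as well-known genes, chosen with their values in view. Alternatives were TMM and DESeq2 scaling, each replicate left out, other CPM levels, median transcript length, mitochondrial genes left out, and, chosen after seeing the data, length and GC adjustment, pairwise dispersions and the wider promoter window.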

Additional observations from a re-analysis of the deposited data

How the results depend on the processing

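No paired analysis was possible because a single group was analysed and no contrast pairs its replicates. The number of genes at 1 CPM or more was 12735, from 12492 to 12839 with each replicate left out, and 8398 at 10 CPM. Leaving out mitochondrial genes moved the share of the 10 most abundant genes from 5.37% to 5.39%. Of the 25 genes highest per length, 17 remained with the median in place of the longest transcript, which put Gdf9 (18098) and Padi6 (9499) above Elobl (6730), Zbed3 (5817) and H1f8 (5541), and 22, 24 and 25 without replicate 1, 2 and 3.

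The median SD of log2 values was 0.05 without replicate 1 and 0.29 without replicate 2 or 3 (lowest 0.0504, highest 0.288). Genes over 2-fold apart numbered 894, from 0 without replicate 1 to 774 without replicate 2, and 1611 among genes of 1 CPM or more and 219 among those of 100 CPM or more. With replicate 1 left out, the mean of Malat1 fell under 10 CPM.

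Genes over 2-fold higher in replicate 1 numbered 416, but 242 with TMM and 222 with DESeq2 scaling, 809 among genes of 1 CPM or more and 82 among those of 100 CPM or more. Genes over 2-fold lower numbered 318, but 512 with TMM, 533 with DESeq2 scaling, and 109 among genes of 100 CPM or more. After adjustment for length and GC content they numbered 168 of 8127 genes, against 305 of the same genes before it. The cause was not tested. Under TMM and DESeq2 scaling the medians of the mitochondrial (2.05 and 2.03), ribosomal protein (0.93 and 0.92), oxidative phosphorylation (0.61 and 0.59) and subcortical (-0.83 and -0.84) lists kept their sign. That of the storage list turned, from 0.14 to -0.01 and -0.02. So did those of the oocyte surface, cohesin, DNA methylation, histone modifier and cytoskeleton lists. The list of imprinted genes silent on the maternal allele, with 2 genes at 10 CPM or more, turned as well. The median of the other maternal-effect genes turned with DESeq2 scaling only, from 0.15 to -0.01.

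At 0.1 CPM the markers counted were 20 of granulosa, 12 of theca and stroma, 5 of surface epithelium, 5 of testis and 8 of other organs, and at 10 CPM they were 3, 1, 1, 1 and 1, and 3 for blood, immune and endothelial cells. The 2 markers of other organs at 1 CPM or more became 4 without replicate 3. Depth limits levels under about 1 CPM, which rest on few counts.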

Other observations

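Some immunoglobulin constant-region genes were listed at levels that no marker list had covered, and they were looked up after their values had been seen. Ighg2b had 192, 113 and 120 CPM in replicates 1 to 3, Ighg1 had 166, 113 and 120 CPM, Ighm had 99.4, 78.0 and 86.8 CPM, and Ighg3 had 64.3, 37.8 and 39.9 CPM. The lambda genes Iglc3 and Iglc2 averaged 45.6 and 17.4 CPM. Each of these genes thus had counts in every pool. Other constant-region genes were far lower: Ighg2c averaged 0.419, Ighd 0.373, Iglc1 0.0921, Ighe 0.0396 and Igha 0.00858 CPM. The kappa gene Igkc, the B cell receptor gene Cd79b and the plasma cell gene Jchain had no count, Cd79a had 2, 0 and 0 counts, and Ptprc had 1, 6 and 0. Ms4a1, which encodes the B cell protein CD20, had 138, 162 and 158 CPM, while Pax5 averaged 0.417 CPM. The heavy chain genes from Ighg2b to Ighm lie within the span of the Igh locus in the annotation, from 113304314 to 113422730 on chromosome 12. Which transcripts give these counts was not tested.

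Lars2, the mitochondrial leucyl-tRNA synthetase gene, followed Nlrp4g, at 4.61, as the named nuclear gene with the widest ratio between pools at 100 CPM or more. It had 697, 177 and 193 CPM, a ratio of highest to lowest pool of 3.94, beside 4.63 for mt-Rnr2. Naa40, at 48.3, 190 and 191 CPM, differed as widely in the other direction.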
